A study of Mus musculus with 4 samples.

Results

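The nuclei described here are Sst-expressing interneurons of mouse brain, taken from snRNA-seq libraries labelled as cortical cells. A nucleus was kept when it held at least 4 unique molecular identifiers (UMIs, each standing for 1 captured transcript) of Sst, at least 1 UMI over Gad1 and Gad2, at most 1 UMI of Pvalb, of Slc17a7 and of Rgs9, 0 UMIs of Vip, and at most 1 UMI over Mog, Aqp4, Csf1r and Cldn5. In all, 382 of the 37538 nuclei of the cortex-labelled libraries met these conditions, out of 78728 nuclei in the series. Of these, 178 were in the AAV-CTRL library and 204 in the AAV-VEGF-C library. The members were thus chosen by their measured counts of these genes, and the levels of the rule genes are given as a description.

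The tissue came from male C57BL/6J mice that received an AAV9 into the cisterna magna at 4 weeks of age and were sampled at 8 weeks. AAV-VEGF-C encoded full-length mouse VEGF-C, a growth factor for lymphatic vessels. AAV-CTRL encoded a soluble fragment of its receptor VEGFR3 that does not bind the ligand (the 4-7-Ig construct), so both groups carried a virus and a secreted product. There was 1 library for each region and virus. Each library was made from tissue pooled over 5 mice, the same mice gave both regions of an AAV group, and the mice cannot be told apart. No test between the viruses was possible, every interval below covers counting error at 95% only, and an effect of the virus cannot be told apart from a difference between the pools or preparations.

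Cortical GABAergic interneurons inhibit local circuits and fall into classes named by marker genes. Interneurons that make the neuropeptide somatostatin arise, as Pvalb interneurons do, in the medial ganglionic eminence (MGE) under the transcription factors Lhx6, Sox6 and Satb1, whereas Vip interneurons arise in the caudal ganglionic eminence. Many Sst cells are Martinotti cells, which inhibit the distal dendrites of pyramidal neurons, and a rare type that also makes nitric oxide synthase 1 (Nos1), Npy and Chodl sends long-range axons. Somatostatin transcription is a textbook target of the cAMP and CREB pathway. The response element lies in the promoter of the gene that defines these nuclei, and the 30 bases around it are shown with the element, TGACGTCA, in capitals.
Sst, GRCm38.p6, chr16:23890874-23890903, minus strand, from RefSeq: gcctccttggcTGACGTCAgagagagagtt
The element began 48 bases before the RefSeq gene start, while the GENCODE model of Sst spans chr16:23889573-23890958 and so already contains it. The full element, read on both strands, was present in the 250 bases before the gene start for 508 of 32851 promoters (1.55%), and these 250 bases of Npy and Cort did not hold it. A match is a description of the letters in the window.

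The nuclei carried 868246 UMIs in the AAV-CTRL library and 944656 in the AAV-VEGF-C library, with medians of 4783.5 and 4514 per nucleus. Whole libraries held 63165470 and 78332657 UMIs. A doublet caller marked 6 and 5 of the Sst nuclei. No barcode was shared between the Sst nuclei of the libraries, although the libraries as a whole shared 94. The median mitochondrial share was 0.579% and 0.871% in Sst nuclei against 0.612% and 0.861% in all nuclei, so it was higher in the AAV-VEGF-C library in both. Genes of striatal projection neurons were higher in the cortex-labelled libraries. Rgs9, a striatal G-protein regulator, stood at 104.6 and 131 CPM (counts scaled to a sum of 1000000 UMIs) in the cortex-labelled libraries and at 48.0 and 46.6 CPM in the striatum-labelled ones, AAV-CTRL first. Slc17a7, the vesicular glutamate transporter of cortical pyramidal cells, was at 415 and 453 CPM in the cortex-labelled libraries against 56.8 and 41.0 CPM.

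The Sst label was checked against genes the rule did not read. Nxph1, which encodes a neurexin ligand of interneurons, was detected in 85.4% of Sst nuclei of AAV-CTRL and 82.8% of AAV-VEGF-C, against 8.04% and 5.35% of oligodendrocyte nuclei (at least 2 Mog UMIs, no Slc17a7, Gad1 or Gad2), which should lack these transcripts and give the background. Grin3a, an NMDA receptor subunit typical of Sst cells, was in 78.1% and 75.5%, against 7.69% and 6.42% of Mog nuclei. Sox6 was in 68.0% and 67.2%, Satb1 in 74.2% and 61.8%, and the GABA transporter gene Slc32a1 in 61.2% and 60.3%. Lhx6 was found in 24.2% and 27.5% of Sst nuclei, against 2.10% and 1.87%. Mog nuclei were shallower, with medians of 1751.5 and 1807 UMIs. The MGE genes were thus far above background in both libraries, although 16 nuclei (8.99%) of AAV-CTRL and 29 (14.2%) of AAV-VEGF-C held under 3 UMIs over Nxph1, Sox6, Satb1, Lhx6 and Grin3a together. These nuclei were shallow, with medians of 1803.5 and 1904 UMIs against 4884.5 and 4751 in the other Sst nuclei.

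Among the nuclei that met the rule, Sst itself ranged from 4 to 88 UMIs with a median of 11.5 in AAV-CTRL, and from 4 to 111 with a median of 11 in AAV-VEGF-C. The summed level was 3449 and 3620 CPM. The median of Gad1 and Gad2 together was 2 UMIs in both libraries. A single Sst UMI was common elsewhere, since 17.8% and 15.9% of Slc17a7 excitatory nuclei and 15.7% and 16.6% of Mog nuclei held one. Just inside the threshold, at 4 Sst UMIs, Nxph1 was detected in 13 of 18 and 12 of 20 nuclei. Just outside it, at 3 UMIs and with every other condition met, it was detected in 13 of 30 and 17 of 39 nuclei. Of the nuclei with at least 4 Sst UMIs, 352 in AAV-CTRL and 464 in AAV-VEGF-C, the conditions that failed most often were Slc17a7, over 1 UMI in 82 and 114, and Gad1 with Gad2, at 0 in 72 and 112.

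**Figure D1:**
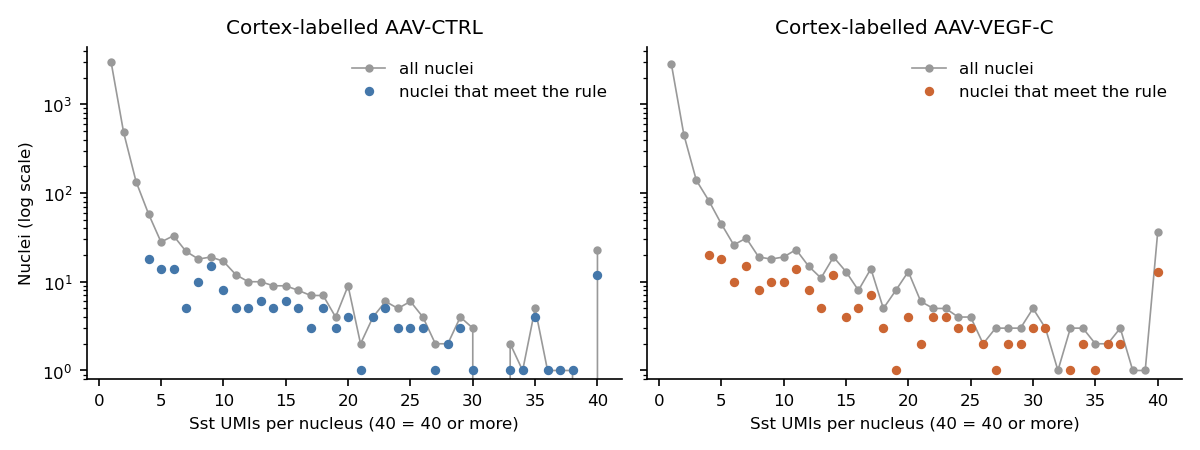
Number of nuclei (log scale) against Sst UMIs per nucleus in the cortex-labelled AAV-CTRL and AAV-VEGF-C libraries. Grey points joined by a line are all nuclei and coloured points the nuclei that met the rule, with 40 standing for 40 or more UMIs. Nuclei with 0 Sst UMIs are not drawn. In both libraries the number of nuclei drops steeply from 1 to 4 UMIs, and the nuclei that met the rule form a long tail from 4 UMIs upward.

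Sst nuclei made up 1.04% (95% interval 0.891 to 1.20) of the AAV-CTRL library and 1.00% (0.869 to 1.15) of the AAV-VEGF-C library, a log2 ratio of -0.05 (-0.35 to 0.25). Comparison nuclei were set by similar rules, with at least 3 Pvalb or Vip UMIs for the other interneurons and at least 4 Slc17a7 UMIs with no Gad1 or Gad2 for excitatory neurons. They numbered 12 and 48 for Pvalb, 74 and 82 for Vip, and 1156 and 1772 for Slc17a7, AAV-CTRL first. Sst nuclei were 67.4% (61.4 to 73.0) of the Sst, Pvalb and Vip nuclei in AAV-CTRL and 61.1% (55.6 to 66.3) in AAV-VEGF-C, a log2 ratio of -0.14 (-0.44 to 0.16). Pvalb nuclei were 4.55% and 14.4% of the same sum, a log2 ratio of 1.66 (0.73 to 2.71) that was larger than its counting error. There were 15.4 Sst nuclei per 100 Slc17a7 nuclei in AAV-CTRL and 11.5 in AAV-VEGF-C. This last log2 ratio was -0.42 (-0.72 to -0.12), larger than the counting error of the Sst nuclei. The ratios of the Sst share of all nuclei and of interneurons were within theirs. These intervals take the denominators as fixed, so the counting error of the Slc17a7 nuclei is left out.

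Sst nuclei were set against all other nuclei of their own library, by CPM summed over nuclei and its log2 ratio. Crhbp, which encodes a binding protein of corticotropin-releasing hormone, was at 181 CPM in Sst nuclei and 9.17 CPM in the rest of AAV-CTRL, a log2 ratio of 4.30. In AAV-VEGF-C it was at 189 and 8.75 CPM, a ratio of 4.44. Cort, the somatostatin-related peptide cortistatin, was at 157 against 8.07 CPM (4.28) and at 221 against 10.9 CPM (4.34). Elfn1, a postsynaptic adhesion protein that sets the facilitation of inputs onto Sst cells, was at 321 against 14.5 CPM (4.47) and 250 against 13.6 CPM (4.20). With the genes of the rule left out, these 3 led the contrast by the ratio nearer 0 of the libraries.

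Other leading genes covered signalling, adhesion and transcription. In AAV-CTRL and AAV-VEGF-C the log2 ratio over the rest was 3.51 and 3.31 for Grin3a, 3.34 and 3.39 for Kcnmb2, a subunit of calcium-activated potassium channels, 3.21 and 3.19 for Nxph1, and 3.09 and 3.13 for the kainate receptor gene Grik1. Npy, the gene of neuropeptide Y, was at 3.17 and 3.44, Lhx6 at 3.11 and 3.18, Nos1 at 3.01 and 3.14, and Tacr1, the substance P receptor, at 3.13 and 3.49. Of 25 genes listed for the Sst class, 20 in AAV-CTRL and 19 in AAV-VEGF-C were at least 2-fold higher than in the rest, with a median log2 ratio of 2.02 and 1.81. Over all 15398 genes with at least 100 UMIs in each library, 2.84% were at least 2-fold higher and 7.47% at least 2-fold lower in both. These shares require the fold in both libraries at once, whereas the list counts are for each library alone. Among 12 measured MGE lineage genes, 10 and 11 were at least 2-fold higher, with medians of 2.34 and 2.31. By its sum this list did not single out Sst nuclei among interneurons. The summed level was 6055 and 6450 CPM in Sst nuclei, 12589 and 9803 CPM in Pvalb nuclei and 8714 and 8566 CPM in Vip nuclei. The list includes Erbb4, at 1244 and 1733 CPM in Sst nuclei against 8323 and 5883 CPM in Pvalb nuclei. Single genes could differ from the sum. Nxph1 was at 1988 and 1903 CPM in Sst nuclei against 28.7 and 68.7 CPM in Vip nuclei. Sox6 was at 701 and 656 CPM against 18.0 and 15.6 CPM there. Immediate early genes, which mark recent activity, were lower than in the rest on the whole. Their median log2 ratios were -0.81 and -0.72 over 20 genes, with 8 and 5 of them at least 2-fold lower.

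Against Pvalb nuclei, 5.59% of 1788 genes were at least 2-fold higher and 2.29% at least 2-fold lower in both libraries. Grin3a was at 789 CPM in Sst nuclei of AAV-CTRL with 0 UMIs in its 12 Pvalb nuclei, a log2 ratio of at least 4.33 against a floor of 3 UMIs, and its ratio was 5.70 in AAV-VEGF-C. Synpr, a synaptic vesicle protein, was higher in Sst nuclei by 4.09 and 3.75. On the other side, Tmem108 was at 103 CPM in Sst against 1213 CPM in Pvalb nuclei of AAV-CTRL (-3.57) and at 135 against 1027 CPM in AAV-VEGF-C (-2.92). Erbb4, the neuregulin receptor, was also lower in Sst nuclei, at -2.74 and -1.76. The Pvalb values of AAV-CTRL rest on 12 nuclei.

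Against Vip nuclei, 5.24% of 2231 genes were at least 2-fold higher and 2.73% at least 2-fold lower in both. The leading gene was Adarb2, an RNA-editing family gene that marks the caudal eminence lineage, at 173 CPM in Sst and 12142 CPM in Vip nuclei of AAV-CTRL (-6.14) and at 270 and 11256 CPM in AAV-VEGF-C (-5.38). Sox6 ran the other way at 5.29 and 5.39. The cannabinoid receptor gene Cnr1 was lower in Sst nuclei, at -3.05 and -2.53, and Igf1, a growth factor of Vip cells, at -2.85 and -3.03. Crhbp had 0 UMIs in the Vip nuclei of either library, so its ratio was at least 4.07 and 4.34.

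Against Slc17a7 nuclei, 3.36% of 9096 genes were at least 2-fold higher and 4.45% at least 2-fold lower in both. Cort was higher by 5.68 and 5.69, Crhbp by 5.49 and 5.83, Elfn1 by 5.63 and 5.29 and Sox6 by 5.21 and 5.24. Fam19a1, a secreted factor of excitatory neurons, was at 109 and 79.4 CPM in Sst nuclei against 1569 and 1550 CPM, ratios of -3.84 and -4.29. Several genes named here overlap others on the genome, Gm45025 within Sox6 and Ppp3r2 within Grin3a among them, and whether counting used strand is not given in the sources used here.

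**Figure D2:**
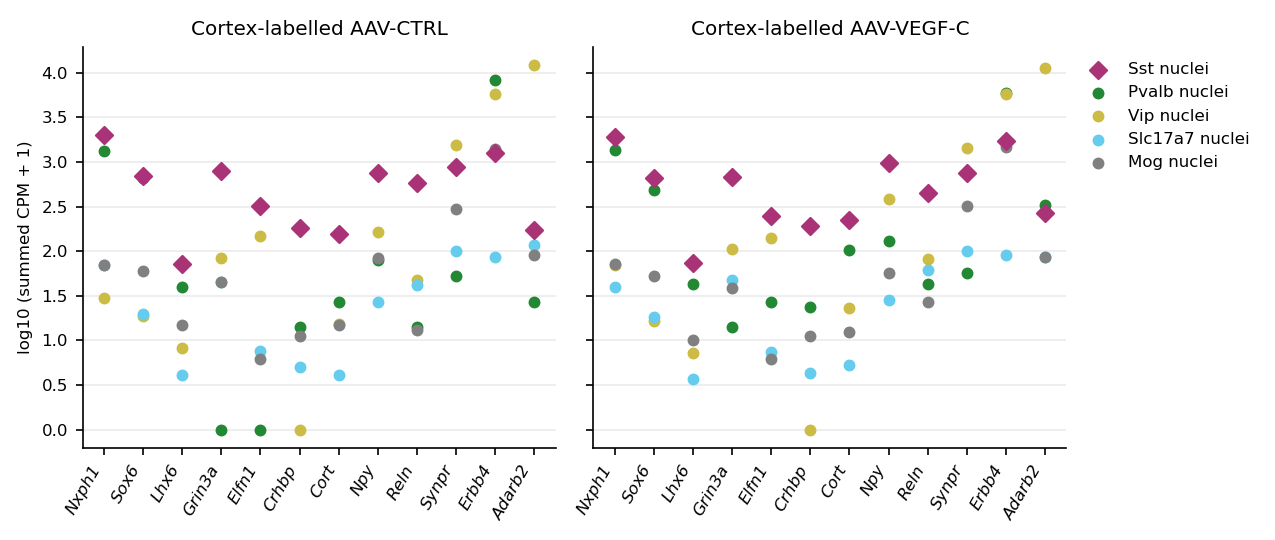
Summed level, as log10 (CPM + 1), of lineage and class genes in Sst nuclei (diamonds) and in Pvalb, Vip, Slc17a7 and Mog nuclei (circles) of each cortex-labelled library. Sst nuclei stand above the Slc17a7 and Mog nuclei for Nxph1, Sox6, Grin3a and Elfn1 in both libraries, and below Vip nuclei for Adarb2.

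Sst nuclei differed among themselves in the peptides they made. Npy was detected in 63.5% of the nuclei of AAV-CTRL and 69.6% of AAV-VEGF-C, against 13.3% and 10.2% of Mog nuclei. Cort was in 27.5% and 31.4% (background 2.80% and 2.41%) and Pdyn, the opioid precursor prodynorphin, in 22.5% and 21.1% (3.85% and 2.94%). Both peptides therefore lay well above background in a minority of nuclei. Crhbp was in 37.6% and 35.3%, and Calb1, the calcium-binding protein calbindin of many Martinotti cells, in 36.5% and 39.2% against 12.2% and 15.5%. Hpse, a heparanase gene used as a marker of Sst cells of layer 4, was in 9.55% and 7.84%, with 0 of 286 and 0 of 374 Mog nuclei, which allows a background of up to 1.05% and 0.802%. Nos1 was in 18.5% and 18.6% and Chodl in 5.62% and 5.88%, with 0 Chodl UMIs in the Mog nuclei. Calb2, Crh and Th were each in under 6% of nuclei in both libraries, and Tac1, at 14.0% and 15.7%, stood against a background of 8.04% and 10.2%.

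**Figure D3:**
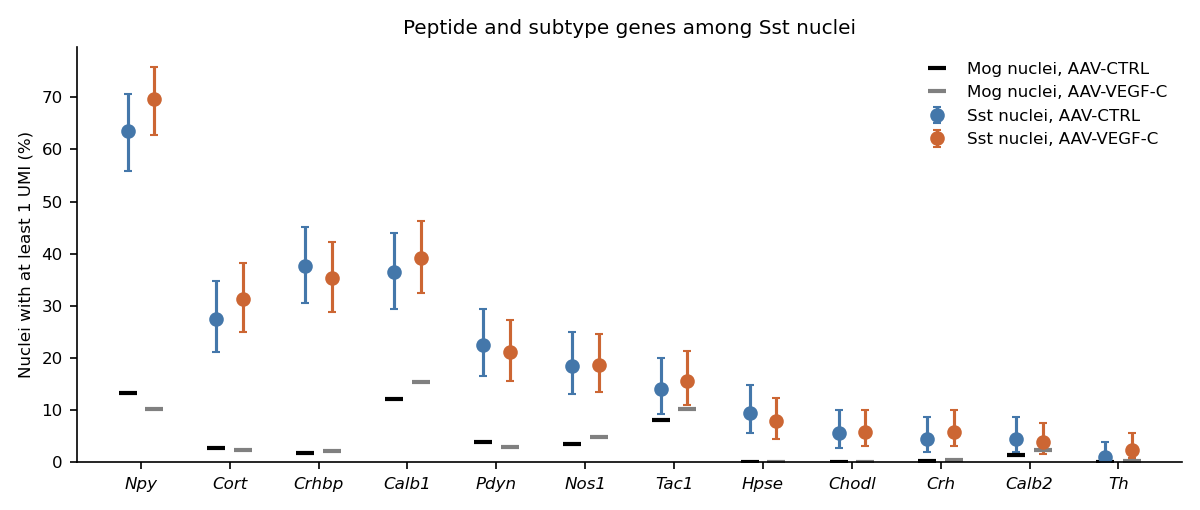
Percent of Sst nuclei with at least 1 UMI of peptide and subtype genes in the cortex-labelled libraries, points with exact binomial 95% intervals, and the percent of Mog nuclei of the same library as short bars. Npy is highest at 63.5% and 69.6%, Chodl is at 5.62% and 5.88% and Th lowest at 1.12% and 2.45%.

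Nuclei with more Sst UMIs also held Npy more often. After every nucleus was thinned once at random to 2000 UMIs, which left out 17 and 25 shallower Sst nuclei, Npy was detected in 17.7%, 46.9% and 70% of AAV-CTRL nuclei with 4 to 9, 10 to 19 and 20 or more Sst UMIs. The same shares were 34.4%, 57.1% and 82.7% in AAV-VEGF-C. Cort ran from 8.06% over 14.3% to 28% and from 9.38% over 15.9% to 38.5%, and Nos1 from 6.45% to 20% and from 4.69% to 19.2% between the lowest and highest bins. Elfn1 did not follow Sst in this way, at 41.9%, 44.9% and 44% in AAV-CTRL and 35.9%, 25.4% and 36.5% in AAV-VEGF-C. Neither did Satb1, at 48.4%, 46.9% and 48% and at 45.3%, 39.7% and 38.5%. Some genes other than those of peptides rose too. Between the lowest and highest bins Sox6 ran from 46.8% to 64% and from 45.3% to 61.5%. Nxph1 ran from 80.6% to 92% and from 78.1% to 96.2%, and Crhbp from 14.5% to 28% and from 12.5% to 28.8%. Lhx6 ran from 12.9% to 12% and from 9.38% to 21.2%, and Pdyn from 14.5% to 12% and from 18.8% to 9.62%. The part of weaker members in the lowest bin was not tested. Over all thinned Sst nuclei Npy stood at 42.9% and 56.4%, while separate random thinnings gave 46.0% and 54.2%, and 49.1% and 51.4%, so the distance between the libraries changed from draw to draw. The bins were set after the values had been seen, and they share the Sst counts the rule used.

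Nos1-expressing nuclei were described by their leading transcripts. Only genes with at least 30 UMIs in the Nos1 nuclei were ranked, a filter that favours genes high in them, and no share of genes past a fold was taken. Nuclei with at least 2 Nos1 UMIs, 13 in AAV-CTRL and 22 in AAV-VEGF-C, were compared with the 145 and 166 Sst nuclei that had none. They were of similar depth, with medians of 4306 and 4213.5 UMIs against 4843 and 4519.5. Tacr1 was at 956 CPM against 12.7 CPM in AAV-CTRL, a log2 ratio of 6.23, and at 852 against 6.45 CPM in AAV-VEGF-C, a ratio of 7.05. Hhip, an antagonist of hedgehog ligands, gave 35 UMIs in the 13 nuclei and 2 in the 145, a ratio of 7.77 (5.81 to 10.9), and 47 UMIs (494 CPM) against 0 in AAV-VEGF-C. Chodl, a marker of the long-range type, was higher by 4.91 and 5.44, and Npy was at 3611 against 545 CPM (2.73) and 3861 against 627 CPM (2.62). Whether these nuclei are of the long-range type, and whether they came from cortical or striatal tissue, was not tested. The cortex-labelled libraries also held the striatal gene Rgs9, at 104.6 and 131 CPM over all nuclei.

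The same nuclei held more of the channel gene Trpc7 (4.27 and 5.03), the retinoic acid receptor gene Rarb (3.65 and 4.65) and the muscarinic receptor gene Chrm2 (4.92 and 2.95). Sst itself was higher by 0.88 and 0.69, whereas Cort differed by 0.27 and 0.25. Pdyn was not detected in them, with 0 UMIs against 163 in the nuclei lacking Nos1 of AAV-CTRL and 0 against 106 in AAV-VEGF-C. This is a ratio of -2.12 or lower in both libraries against the floor of 3 UMIs. With 1 UMI enough for each gene, 3 of 33 and 4 of 38 nuclei with Nos1 held Pdyn, against 25.5% and 23.5% without Nos1. Chodl and Nos1 met in the same nuclei: of those with a Chodl UMI, 7 of 10 and 9 of 12 also held Nos1, 10 of 10 and 11 of 12 held Npy, and 0 of 10 and 0 of 12 held Pdyn, which allows shares of up to 30% and 25%. The 6 and 5 nuclei with at least 2 Chodl UMIs had Nos1 higher by 5.45 and 5.03 and Sst by 1.01 and 1.24 than nuclei without Chodl.

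**Figure D4:**
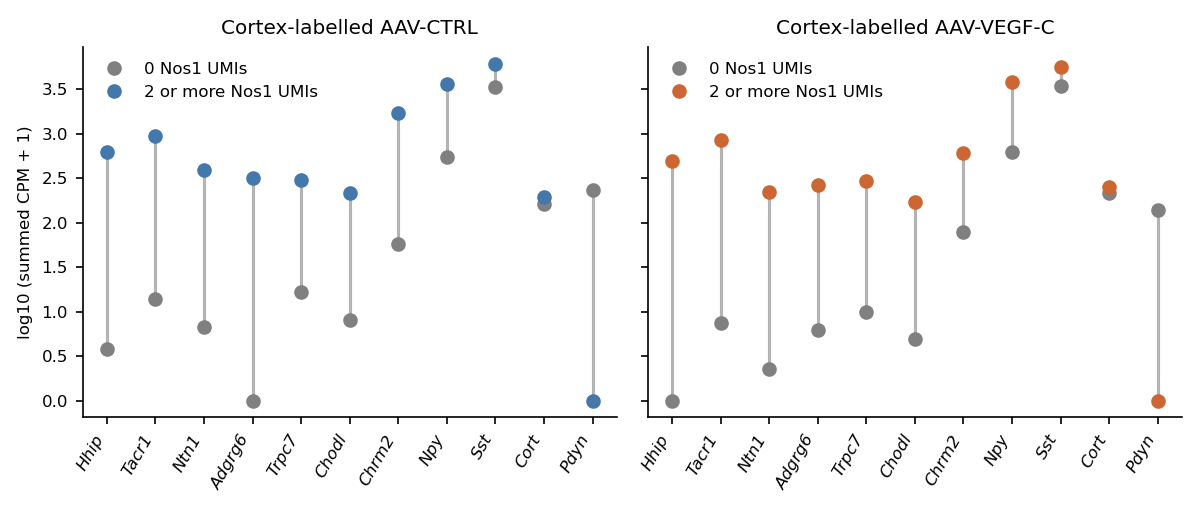
Summed level, as log10 (CPM + 1), in Sst nuclei with 2 or more Nos1 UMIs (coloured, 13 in AAV-CTRL and 22 in AAV-VEGF-C) and with 0 Nos1 UMIs (grey), joined by a line for each gene. Hhip, Tacr1, Chodl and Npy are higher in the Nos1 nuclei of both libraries and Pdyn is at 0 there.

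Cort was found both with and without Nos1: it was in 33.3% and 39.5% of nuclei with a Nos1 UMI and in 26.2% and 29.5% of those without. Of Sst nuclei with a Cort UMI, 43 of 49 in AAV-CTRL and 56 of 64 in AAV-VEGF-C also held Npy (87.8% and 87.5%), against 54.3% and 61.4% of those without Cort. The rankings for Cort and Pdyn used the same 30 UMI filter, which favours genes high in the positive nuclei. Nuclei with at least 2 Cort UMIs, 24 and 31, had Npy higher than nuclei without Cort by 1.52 and 1.65. Alkal2, a ligand of the ALK receptor, was higher by 2.16 (0.55 to 3.77, 8 against 8 UMIs) and 4.32. The retinol carrier gene Rbp4 was higher by 1.68 and 1.38 and Crhbp by 1.01 and 1.67. These Cort nuclei also held more Sst, with medians of 19 and 22 Sst UMIs against 9 and 10. The part of the Sst level in these ratios was not tested. Pdyn was lower in the Cort nuclei, at -2.48 and -1.80. Nuclei with at least 2 Pdyn UMIs, 23 and 21, had higher Unc13c, a gene of synaptic vesicle priming (1.96 and 1.65), Serpini1, the neuronal protease inhibitor neuroserpin (1.46 and 1.37), and Eya4 (1.83 and 1.32), and lower Npy (-1.06 and -1.34). They held 0 Nos1 UMIs against 174 and 233 in nuclei without Pdyn, a ratio of -3.65 or lower and -3.45 or lower. Of nuclei with at least 1 Pdyn UMI, 3 of 40 and 4 of 43 held Nos1.

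The same rule was applied to the striatum-labelled libraries. It found 158 of 23724 nuclei (0.666%) in AAV-CTRL and 190 of 17466 (1.09%) in AAV-VEGF-C, with medians of 4845 and 5904.5 UMIs. At 2000 UMIs per nucleus, Npy was detected in 9.40% and 8.65% of these nuclei against 42.9% and 56.4% of the cortex-labelled ones, and Cort in 3.36% and 0.541% against 16.1% and 20.1%. The MGE genes were rarer too: Sox6 was in 14.1% and 12.4% against 57.1% and 57.0%, and Satb1 in 8.05% and 12.4% against 47.8% and 41.3%. Nos1 was at 13.4% and 13.5% of striatum-labelled and 11.8% and 12.3% of cortex-labelled nuclei. The cortex-labelled Sst nuclei were thus richer in Npy, Cort and Sox6 under either virus, but they also held more Sst. Their median was 11.5 and 11 Sst UMIs, against 6 and 7 in the striatum-labelled nuclei. Thinned cortex-labelled nuclei with 4 to 9 Sst UMIs held Npy in 17.7% and 34.4% and Cort in 8.06% and 9.38%. The part of the Sst level in these differences was not tested. Without thinning, Npy was in 20.3% and 16.8% of the striatum-labelled nuclei. Meis2, also without thinning, was in 53.2% and 48.9% of them against 23.0% and 27.5% of the cortex-labelled ones. These thinned shares were chosen after the data had been seen.

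Sst nuclei of AAV-VEGF-C and AAV-CTRL were compared by the log2 ratio of summed CPM, AAV-VEGF-C over AAV-CTRL, for 3716 genes with at least 100 UMIs over both libraries. The median ratio was 0.01. A ratio of at least 1.5-fold was found for 126 genes (3.39%), of which 87 (2.34%) were higher and 39 (1.05%) lower in AAV-VEGF-C. Each value compares 1 library with 1 library.

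The 10 highest ratios included genes of protein synthesis and metabolism. Rpl28, a ribosomal protein gene, had 50 UMIs in AAV-CTRL and 114 in AAV-VEGF-C, a log2 ratio of 1.07 (0.58 to 1.58), spread over 40 and 88 nuclei. Rps26 had 50 and 107 UMIs (0.98), the glycolytic gene Gapdh 76 and 151 (0.87) and Atp5k, a subunit of mitochondrial ATP synthase, 113 and 224 (0.87). Rpl28, Gapdh and Atp5k were also higher in the Slc17a7 nuclei of AAV-VEGF-C, by 0.47, 0.33 and 0.56, whereas Rps26 was at 0.10 (-0.07 to 0.28) there. Hbb-bs, a haemoglobin gene, had the highest ratio at 69 and 186 UMIs (1.31), but 108 of its UMIs lay in 1 nucleus, its ratio was -0.20 without the 2 nuclei that held 5 or more haemoglobin UMIs, and it was -0.75 in Slc17a7 nuclei. Hs3st4, an excitatory neuron transcript by the list used here, had 79 and 174 UMIs (1.02), of which 37 were in 1 nucleus. The remaining 4 were Xrn2, Nek7, Gripap1 and Cpd, at 0.88 to 0.98.

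Among the 10 lowest, Atg16l1, an autophagy gene, had 76 and 42 UMIs (-0.98) over 62 and 38 nuclei, and Cdk8, a kinase of the Mediator complex, 149 and 98 (-0.73). Il1rapl2, a synaptic adhesion gene, had 460 and 261 (-0.94), with up to 45 UMIs in 1 nucleus. Ttr, the transthyretin gene of the choroid plexus, had 179 and 83 UMIs (-1.23), of which 134 were in 1 AAV-CTRL nucleus, and its ratio was 0.83 among nuclei with at least 8 Sst UMIs and 1.92 in Slc17a7 nuclei. Trpm3 (443 and 283, -0.77) had 90 UMIs in 1 nucleus of AAV-CTRL, and its ratio was -0.08 among nuclei with at least 8 Sst UMIs. The rest were Plekhh2, Tmem245, Cep112, Pex14 and Mroh1, at -0.96 to -0.72.

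The 25 genes listed for the Sst class and the genes that led the contrast with other nuclei ran differently. Of the 20 leading genes against the rest, 12 were higher and 8 lower in AAV-VEGF-C by CPM. The median log2 ratio over the 25 listed genes was -0.25, against 0.01 over all genes, and 6 of the 25 were above 0. Col25a1, a transmembrane collagen, was at 569 CPM in AAV-CTRL and 397 CPM in AAV-VEGF-C (-0.52, -0.72 to -0.32). Fstl5 was at 304 and 211 CPM (-0.53), Reln, the extracellular protein reelin, at 579 and 452 CPM (-0.36, -0.55 to -0.17) and Elfn1 at 321 and 250 CPM (-0.36, -0.62 to -0.11). Unc13c, at 335 and 207 CPM (-0.69, -0.96 to -0.43), was the 1 member past 1.5-fold. The MGE lineage genes had a median of 0.01 over 9 genes, and Nxph1 stood at -0.06 (-0.16 to 0.03). The Sst class list had a median of -0.05 over 12 genes in Vip nuclei and 0.01 over 24 genes in Slc17a7 nuclei. Its members are mostly long genes, 18 of 25 spanning at least 200 kb, and the median over all 723 genes of that span in Sst nuclei was -0.05. In comparison, 409 genes under 10 kb had a median of 0.23 and 66 ribosomal protein genes one of 0.40. The part of gene length in the Sst class values was not tested.

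The peptide genes ran in both directions. Npy was at 753 CPM in AAV-CTRL and 963 CPM in AAV-VEGF-C (0.35, 0.21 to 0.50) and Cort at 157 and 221 CPM (0.50, 0.18 to 0.82). Pdyn was at 191 and 116 CPM (-0.72, -1.08 to -0.36), while it was detected in a like share of nuclei, 22.5% and 21.1%. Cck, cholecystokinin, was at 132 and 171 CPM (0.37), although it was detected in 43.8% and 52.0% of Sst nuclei and in 47.9% and 55.1% of Mog nuclei. Sst itself differed by 0.07. Over the 5 peptide genes with enough UMIs the median was 0.35, but it was -0.053 among nuclei with at least 2 Sst UMIs and 0.15 among those with at least 8.

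Signalling by brain-derived neurotrophic factor (BDNF), a growth factor that interneurons receive from pyramidal cells through the receptor TrkB, was a question of the study. The paper reported the pathway as upregulated in inhibitory neurons and Sv2c interneurons, among other cells, with BDNF protein in the brain unchanged. Its pathway result came from enrichment among upregulated genes in clusters of cortex and striatum nuclei. The values below use another gene list, measure and group of nuclei. Of 50 listed genes of the pathway, 31 had at least 100 UMIs, and their median ratio was 0.00 with 16 above 0. Ntrk2, which encodes TrkB, was at 905 and 828 CPM (-0.13, -0.27 to 0.02), and Ntrk3, the receptor for neurotrophin 3, at 334 and 291 CPM (-0.20, -0.44 to 0.04). The members past 1.5-fold were Hras, a small GTPase downstream of the receptor, with 65 and 116 UMIs (0.71, 0.26 to 1.17), and Mtor, a kinase of growth control, with 61 and 42 (-0.66, -1.26 to -0.07). Gsk3b, a kinase inhibited by growth factor signalling, was at 252 and 307 CPM (0.28, 0.03 to 0.54). Bdnf itself had 19 and 14 UMIs (-0.56, -1.67 to 0.51), so a difference of that size was not detectable at this depth.

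VEGF ligands and receptors were scarce. The 10 genes together had 160 and 151 UMIs (-0.21, -0.54 to 0.12), and none reached 100. Nrp2, a co-receptor of VEGF-C, had 38 and 47 UMIs, and Vegfc, the gene of the ligand, 27 and 20, detected in 12.9% and 8.82% of Sst nuclei against 1.05% and 0.535% of Mog nuclei. Flt4, which encodes VEGFR3, had 1 and 0 UMIs. Somatostatin receptor genes were likewise rare at 26 and 29 UMIs in all, with Sstr1 at 16 and 12 and Sstr4 at 0 in both.

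Medians of the receptor, channel and calcium signalling lists lay between -0.15 and 0.04. The median was -0.07 over 20 glutamate receptor genes, with the delta receptor gene Grid1 at 453 and 332 CPM (-0.45, -0.66 to -0.23). It was -0.02 over 11 GABA receptor genes, -0.15 over 7 acetylcholine and monoamine receptor genes, 0.04 over 21 potassium channel genes, -0.05 over 19 sodium, calcium and pacemaker channel genes and 0.02 over 40 genes of calcium and G protein signalling. No gene of these 6 lists reached 1.5-fold. The potassium channel gene Kcnh7 came closest at 304 and 446 CPM (0.55, 0.33 to 0.78), and Erbb4, of the MGE list, was at 1244 and 1733 CPM (0.48, 0.37 to 0.59). Genes for the synthesis, packing and uptake of GABA had a median of -0.02 over 6, and the immediate early genes with enough UMIs, Homer1 and Egr1 among them, -0.07 over 3.

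**Figure D5:**
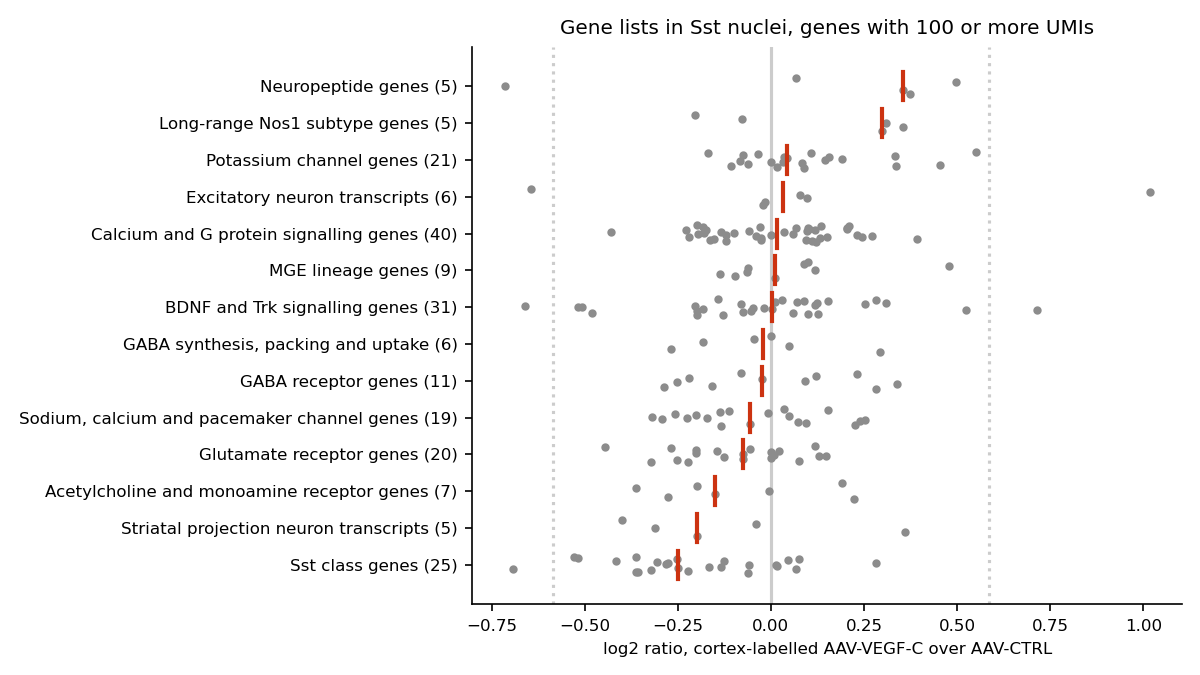
Log2 ratios, AAV-VEGF-C over AAV-CTRL, in Sst nuclei of the cortex-labelled libraries for genes with at least 100 UMIs, by list, with the median of each list as a red bar, 1.5-fold as dotted lines and the number of genes in brackets. The Sst class list has a median of -0.25 and the neuropeptide list one of 0.35 (-0.053 with at least 2 Sst UMIs), while BDNF and Trk signalling is at 0.00.

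Transcripts of other cell types were also present in Sst nuclei. Oligodendrocyte transcripts summed to 538 CPM in AAV-CTRL and 597 CPM in AAV-VEGF-C over 10 genes (0.15, -0.03 to 0.33), astrocyte transcripts to 669 and 758 CPM (0.18, 0.02 to 0.34) and microglia transcripts to 123 and 155 CPM (0.33, -0.04 to 0.70). Endothelial transcripts were at 54.1 and 46.6 CPM. All 10 astrocyte and all 10 endothelial genes were at least 2-fold lower in Sst nuclei than in the rest of both libraries. The rule itself capped Mog, Aqp4, Csf1r, Cldn5, Slc17a7 and Rgs9, so low levels of these markers were set in advance. Transcripts of striatal projection neurons were at 1826 and 1633 CPM (-0.16, -0.26 to -0.06), against 2490 and 2547 CPM in the rest. Excitatory transcripts were at 805 and 859 CPM (0.09, -0.05 to 0.24), against 1919 and 1897 CPM. Fewer genes of the other lists were at least 2-fold lower than in the rest. Of 10 in each list these were 9 and 7 for oligodendrocytes and 8 and 5 for microglia. They were 6 and 5 for excitatory and 4 and 5 for striatal projection neurons. Adarb2, of Vip cells, was at 173 and 270 CPM (0.64, 0.35 to 0.94). Their part in the differences between the libraries was not tested.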

How the data were processed

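The authors pooled tissue of 5 mice per AAV group, isolated nuclei and prepared 10x Genomics 3′ libraries. The deposited values are raw UMI counts of 31053 genes per nucleus, made by the authors with Cell Ranger (5.0.1 per the file headers, 5.1.1 with mm10 per the submitters' processing notes). Whether intronic reads were counted is not given in the sources used here. The authors discarded nuclei under 200 UMIs and removed clusters of low counts. The files hold 78728 barcodes, the number the study states after its filters, and none was removed here. The authors' tests over nuclei were not used.

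Members and gene lists (26) were chosen with earlier results of these data known. Nuclei were selected by the UMI rule. Called doublets (Scrublet in scanpy 1.11.5, expected rate 8%) were kept and left out as an alternative. UMIs were summed over nuclei per library and scaled to CPM, a sum of 1000000. Shares carry exact binomial (Clopper-Pearson), levels exact Poisson and ratios exact conditional binomial 95% intervals, computed with numpy 2.4.6, scipy 1.17.1 and pandas 2.3.3. UMIs from 1 pool are not independent mice, so intervals cover counting error only. A group with 0 UMIs was set to a floor of 3. Genes needed 100 UMIs over both libraries (AAV ratio), 100 in each library (class contrasts) or 30 in the positive nuclei (subtypes). The ratio calculation was tested on simulated counts. TMM factors came from edgeR 4.0.16 in R 4.3.3.

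Named genes were the listed genes, the 20 leading genes against the rest, the 10 per direction against each class and between the viruses, and the 10 for each subtype gene, by the ratio nearer 0 of the libraries. Other genes given with values are members of a list. Positions are GRCm38, from GENCODE, and promoter sequence is from RefSeq. Alternatives were doublets left out, other Sst minimums, 0 UMIs of every excluded gene, thinning, another scaling and other count minimums. Leaving out haemoglobin-rich nuclei or nuclei with few MGE transcripts, and the gene length and ribosomal classes, were added after the data were seen.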

Additional observations from a re-analysis of the deposited data

Results flagged for a closer look

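The share of nuclei that met the Sst rule had log2 ratios of opposite sign in the regions. The log2 ratio of AAV-VEGF-C over AAV-CTRL was -0.050 in the cortex-labelled libraries, from 1.04% to 1.00%, and 0.71 in the striatum-labelled libraries, from 0.666% to 1.09%. With 1 library in each group this difference was not tested. The cortex interval, -0.35 to 0.25, covers both signs, so no direction was shown there, while the striatum interval was 0.40 to 1.02. Median UMIs over all nuclei were 2622.5 and 2873 in the cortex-labelled and 2272 and 2647 in the striatum-labelled libraries, AAV-CTRL first. The part of depth was not tested.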

How the results depend on the processing

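No paired analysis was possible because each group held 1 library, and for the same reason no library could be left out. Among 257 values of main results under alternatives, 208 stayed within counting error (counts within 1.5-fold), 47 moved and 2 reversed. For the medians of gene lists, the tolerance was set after the values had been seen. It is now the counting error of a median, under which 168 stayed, 21 moved and 2 reversed. Under the first tolerance, the interval of the list's summed UMIs, 139 stayed, 44 moved and 8 reversed. The 6 further reversals were potassium channels (-0.03 thinned, -0.01 by mean of single-nucleus CPM), sodium, calcium and pacemaker channels (0.09 with 0 UMIs of each excluded gene, 0.03 by mean CPM) and acetylcholine and monoamine receptors (0.04 at 8 Sst UMIs, 0.13 with 0 UMIs). The causes were not tested except where the setting changes the number of nuclei or genes.

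The share of Sst nuclei was 1.79% and 1.57% (AAV-CTRL, AAV-VEGF-C) with at least 2 Sst UMIs, 0.740% and 0.692% with at least 8, and 0.355% and 0.295% with 0 UMIs of each excluded gene. It was 0.859% in AAV-VEGF-C without nuclei poor in MGE transcripts. The share among interneurons was 78.1% and 71.0%, 59.6% and 52.0%, and 59.8% and 53.6% under the same 3 rules. The Sst class median against the rest became 1.71, 2.14 and 1.75 in AAV-CTRL and 1.71 in AAV-VEGF-C with at least 2 UMIs. Subtype genes in at least 5% of nuclei of both libraries numbered 22, but 12 after thinning and 7 at 2 or more UMIs.

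Genes at least 1.5-fold higher and lower numbered 87 and 39. They numbered 35 and 19 with 0 UMIs of each excluded gene, 31 and 17 after thinning, 591 and 400 with at least 30 UMIs, 9 and 4 with at least 300, and 2340 and 2060 with at least 1 UMI in each library. Lower genes were 63 by mean of single-nucleus CPM. The count minimum sets how many genes are examined. Hbb-bs reversed to -0.36 with 0 UMIs of each excluded gene and to -0.20 without haemoglobin-rich nuclei, and Ttr to 0.83 at 8 Sst UMIs.

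The neuropeptide median reversed to -0.053 with at least 2 Sst UMIs, and was 0.15 at 8, 0.56 with 0 UMIs of each excluded gene and 0.068 with 1 UMI in each library. The long-range Nos1 median of 0.30 over 5 genes reversed to -0.020 with at least 30 UMIs, and was 1.14 with 0 UMIs of each excluded gene and 0.039 with 1 UMI in each. The Sst class median was -0.11 with at least 2 Sst UMIs and -0.14 after thinning, and kept its sign in all 13 alternatives. With 0 UMIs of each excluded gene, medians were -0.18 for GABA synthesis, -0.32 for MGE lineage, -0.21 for glutamate receptors, 0.23 for GABA receptors, 0.13 for acetylcholine and monoamine receptors, 0.093 for sodium, calcium and pacemaker channels and 0.21 for BDNF signalling. Glutamate receptors were at -0.010 with at least 2 Sst UMIs. Excitatory transcripts were at -0.30 after thinning and -0.28 with at least 300 UMIs. Higher genes were 69.0% of those past the fold, and 59.8% with TMM scaling.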

Other observations

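Ribosomal protein genes were higher in AAV-VEGF-C in every nuclear class examined. In Sst nuclei, 63 of 66 with enough UMIs were above 0, with a median log2 ratio of 0.40 and sums of 7938 CPM in AAV-CTRL and 10514 CPM in AAV-VEGF-C. The median was 0.46 in Vip nuclei (20 of 20 above 0), 0.33 in Slc17a7 nuclei (73 of 76) and 0.42 in Mog nuclei (66 of 69). In Sst nuclei the median ratio was 0.23 over 409 genes spanning under 10 kb, 0.05 from 10 to 50 kb, -0.02 from 50 to 200 kb and -0.05 at 200 kb or more, and it was 0.20 and -0.16 at the ends of this range in Mog nuclei. These classes were set after the data had been seen, and the pattern rests on 1 library for each virus.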
